A study of Homo sapiens with 12 samples.

Results

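The aldo-keto reductases examined here are 9 human genes, AKR1B10, AKR1C1, AKR1C2, AKR1C3, AKR1C4, AKR1D1, AKR1A1, AKR7A2 and AKR7A3, listed by symbol. A gene was read from a probe set that the array's annotation gives exactly 1 symbol, and from the probe set with the highest mean where there were several. By this rule 8 of the 9 genes had a probe set, of 18404 genes in all, and 7 of them passed a filter on low values that kept 13199 genes. AKR1A1 had no such probe set and is not analysed here. AKR1C4 had one but did not pass the filter.

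The cells were HepG2C3A, a clonal derivative of the human hepatoblastoma line HepG2 that is used as a stand-in for hepatocytes. They were grown for 96 h either in a microsystem or in Petri dishes, and in each culture some cells were treated with acetaminophen, an analgesic that the liver oxidises and conjugates, for 72 h. The 4 groups were treated cells in the microsystem, control cells in the microsystem, treated cells in Petri dishes and control cells in Petri dishes, with 3 arrays in each. The labels give no acetaminophen dose, and all groups share 1 cell line. No label says whether the arrays of a group stand for separate cultures, and the p-values therefore cover only the spread between these arrays, which may be technical.

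The values were log2 intensities per probe set, and the median of an array lay between 5.56 and 5.63. Arrays correlated at 0.991 to 0.995 within groups and at 0.976 to 0.993 between groups. The first principal component, with 63.7% of the variance, parted the cultures, and the second, with 14.4%, parted treated from control arrays. The third, with 6.77%, set the microsystem arrays numbered 3 apart, at -13.9 (treated) and -17.2 (control), so results were also computed without both. The 9 defining hepatocyte markers all passed the filter, at mean array percentiles of 61.4 to 99.8. Of the markers of other cell types, 0 of 5 endothelial, 4 of 5 fibroblast or stellate cell, 3 of 5 leukocyte and 4 of 5 cholangiocyte genes passed. EPCAM (96.5), SOX9 (86.9) and KRT19 (86.7) of the cholangiocyte list and CD68 (86.4) of the leukocyte list had the highest mean array percentiles, and CFTR (11), DCN (11.6) and PTPRC (9.4) the lowest. The mean log2 value of the 5 cholangiocyte markers was 6.99 to 7.12 in treated and 7.08 to 7.11 in control microsystem arrays, against 7.3 to 7.42 in treated and 7.22 to 7.35 in control Petri arrays. Within that list KRT19 was at 8.5 in treated and 8.26 in control microsystem cells, against 9.27 and 8.99 in Petri dishes. SOX9 was at 8.48 and 8.59, against 9.03 and 8.87. KRT7 (5.13 and 5.3, against 5.16 and 5.26), EPCAM (10.42 and 10.55, against 10.49 and 10.6) and CFTR (2.71 and 2.75, against 2.75 and 2.65) lay closer together. The mean log2 value of the 5 leukocyte markers was 4.87 to 5.02 in treated and 5.03 to 5.05 in control microsystem arrays, against 5.23 to 5.33 in treated and 5.3 to 5.42 in control Petri arrays. Of these, CD68 was at 8.2 in treated and 8.16 in control microsystem cells, against 9.41 and 9.21 in Petri dishes. CD14 was at 5.23 and 5.36, against 5.88 and 5.8. PTPRC, CD3E and CD79A were slightly higher in the microsystem among treated cells, and slightly lower there among control cells. The part of these markers in the results below was not tested.

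Aldo-keto reductases use NADPH to reduce aldehydes and ketones to alcohols. In liver cells they detoxify aldehydes formed from oxidised lipids, reduce steroid hormones and bile acid precursors, and act on drugs that carry a carbonyl group. Several of them, AKR1B10 and AKR1C1 to AKR1C3 among them, are known targets of NRF2 (gene NFE2L2), the transcription factor that KEAP1 holds back until cells meet electrophiles or oxidants.

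The promoters of the AKR1C genes are shown because AKR1C1, AKR1C2 and AKR1C3 rose in the microsystem, while their neighbour AKR1C4 on chromosome 10 was too dim to test. Each sequence is the 150 bases before a RefSeq transcript start in GRCh38.p14, read 5′ to 3′ on the strand of the gene. Capitals mark the stretch that holds a CCAAT box on the reverse strand and, overlapping it by 1 base, the letters GTTAAC.
AKR1C1: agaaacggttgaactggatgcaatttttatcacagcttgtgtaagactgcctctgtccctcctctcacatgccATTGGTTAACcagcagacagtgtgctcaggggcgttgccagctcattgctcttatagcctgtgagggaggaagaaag
AKR1C2: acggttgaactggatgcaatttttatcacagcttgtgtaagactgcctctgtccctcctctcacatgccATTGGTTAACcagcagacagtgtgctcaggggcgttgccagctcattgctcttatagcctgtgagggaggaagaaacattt
AKR1C3, upstream start: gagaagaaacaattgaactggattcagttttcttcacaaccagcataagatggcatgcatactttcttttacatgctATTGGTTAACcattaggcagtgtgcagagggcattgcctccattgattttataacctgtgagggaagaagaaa
AKR1C3, downstream start: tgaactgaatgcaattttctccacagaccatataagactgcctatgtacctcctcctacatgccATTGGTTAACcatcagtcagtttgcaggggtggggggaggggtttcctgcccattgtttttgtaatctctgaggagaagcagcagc
AKR1C4: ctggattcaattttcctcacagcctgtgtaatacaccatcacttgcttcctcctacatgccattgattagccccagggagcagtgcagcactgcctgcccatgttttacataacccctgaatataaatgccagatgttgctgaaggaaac
The windows are chr10:4963265-4963414 (plus strand), chr10:5003858-5004007 (minus strand), chr10:5048631-5048780 (plus strand), chr10:5094264-5094413 (plus strand) and chr10:5196687-5196836 (plus strand). The AKR1C1 and AKR1C2 windows were identical at 94.2% of 154 aligned columns, and the AKR1C1 and AKR1C4 windows at 57.3% of 164. The capitals occurred in the first 4 windows and not in that of AKR1C4. Among 35114 RefSeq promoter windows of the same length, CCAAT on either strand was found in 23.5%, GTTAAC in 1.32% and both, at any positions, in 0.347%. The joined stretch itself was not counted. The AKR1C genes are close relatives, so their matches are not separate occurrences. The core of the antioxidant response element to which NRF2 binds, searched as TGACNNNGC on both strands, was in 7.29% of windows. Among the listed genes with a window, it was only in that of AKR7A2. AKR1B10 had no window, so its promoter was not searched. These motifs were chosen after the sequences were seen, a match is not evidence of binding, and no match says only that these letters are not in this window.

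In this gene family only differences between the cultures passed the threshold in the main tests. They were those of AKR1B10, AKR1C1, AKR1C2 and AKR1C3 in both treatments and of AKR7A3 among treated cells. AKR1C1 to AKR1C3 are close relatives, so their calls may not be separate. Of the 7 tested genes, 5 rose in the microsystem relative to Petri dishes among treated cells and 4 among control cells, and none fell. Over all tested genes, 41.4% changed among treated cells (22.6% rose, 18.9% fell) and 44.9% among control cells (26.5% rose, 18.3% fell), by limma with a Benjamini-Hochberg adjusted p under 0.05. The cultures did not overlap for 5 of the 7 genes among treated cells, against 52.9% of all genes, and for 4 among control cells, against 52.4%. The median log2 difference of the 7 genes was 0.51 among treated cells, against 0.00 for all genes, and 0.57 among control cells, against 0.01. In these bulk samples of 1 cell line, fewer cells that express a gene and less of its RNA per cell cannot be told apart.

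AKR1B10, which reduces retinal and lipid-derived aldehydes and is often raised in hepatocellular carcinoma, had the widest range. Its log2 values were 10.998, 10.82 and 10.09 in treated microsystem cells and 11.45, 11.15 and 10.50 in control microsystem cells, against 6.0, 5.69 and 6.02 in treated Petri cells and 5.71, 5.77 and 5.30 in control Petri cells. Every microsystem array lay above every Petri array, and the lowest microsystem values of each treatment were those of the arrays numbered 3. The difference was 4.73 ± 0.25 log2 units (SE, 26.58-fold, adjusted p = 3.76e-08 by limma) among treated cells and 5.44 ± 0.25 (43.44-fold, adjusted p = 1.72e-08) among control cells. By size of rise AKR1B10 stood at rank 2 of 13199 genes in both comparisons, after CYP1A1, which encodes a cytochrome P450 induced through the aryl hydrocarbon receptor. The array percentile of AKR1B10 ran from 95 to 98.4 on microsystem arrays. On Petri arrays it ran from 45.9 to 55.6, so the folds rest on Petri values close to the array median.

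AKR1C1, which reduces progesterone, rose by less. It measured 12.71, 12.70 and 12.69 in treated microsystem cells and 12.94, 12.96 and 12.79 in control microsystem cells, against 11.95, 11.78 and 11.66 in treated Petri cells and 11.97, 11.80 and 11.76 in control Petri cells. The cultures did not overlap. The rise was 0.90 ± 0.09 log2 units (SE, 1.87-fold, adjusted p = 5.97e-06) among treated cells and 1.05 ± 0.09 (2.07-fold, adjusted p = 1.6e-06) among control cells, both by limma. A second AKR1C1 probe set, at array percentiles of 43.1 to 54.4, differed by 0.03 ± 0.19 (adjusted p = 0.926) among treated cells and 0.17 ± 0.19 (adjusted p = 0.534) among control cells, so the probe sets disagreed. With the mean of both, the gene's differences were 0.47 and 0.61, each still past the threshold.

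AKR1C2, which inactivates dihydrotestosterone, was at 10.62, 10.34 and 10.42 in treated and 10.87, 10.31 and 10.54 in control microsystem cells. In Petri dishes it was at 9.01, 9.09 and 9.01 in treated and 9.08, 9.07 and 9.08 in control cells. The microsystem arrays were all higher and also spread more widely than the Petri arrays. It rose by 1.42 ± 0.12 log2 units (SE, 2.68-fold, adjusted p = 1.4e-06) among treated cells and by 1.495 ± 0.12 (2.82-fold, adjusted p = 9.64e-07) among control cells, by limma.

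AKR1C3, which makes testosterone from androstenedione and also reduces prostaglandins, was at 11.72, 11.78 and 11.79 in treated and 11.94, 11.81 and 11.81 in control microsystem cells. In Petri dishes it was at 11.25, 11.22 and 11.30 in treated and 11.30, 11.24 and 11.31 in control cells. No microsystem array overlapped a Petri array, though the gap was smaller than for AKR1C1 and AKR1C2. The rise was 0.51 ± 0.07 log2 units (SE, 1.42-fold, adjusted p = 9e-05) among treated cells and 0.57 ± 0.07 (1.48-fold, adjusted p = 3.04e-05) among control cells.

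AKR1C4, a liver enzyme that acts on steroids and bile acid precursors, was above the 40th percentile on 0 of 12 arrays. It was at 4.07, 4.19 and 4.07 in treated and 4.34, 4.15 and 4.26 in control microsystem cells, against 3.77, 3.84 and 3.55 in treated and 3.73, 3.69 and 3.60 in control Petri cells. These values, at array percentiles between 22.8 and 33, all lay under the 40th percentile (log2 4.8 to 4.9), so no fold is given and no difference is drawn from them. AKR1C1 to AKR1C4 are close relatives, as are AKR1B10 and AKR1B15, and AKR7A2, AKR7A3 and AKR7L, so probes may read a neighbour's RNA and each gene's share of a value is uncertain.

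**Figure D1:**
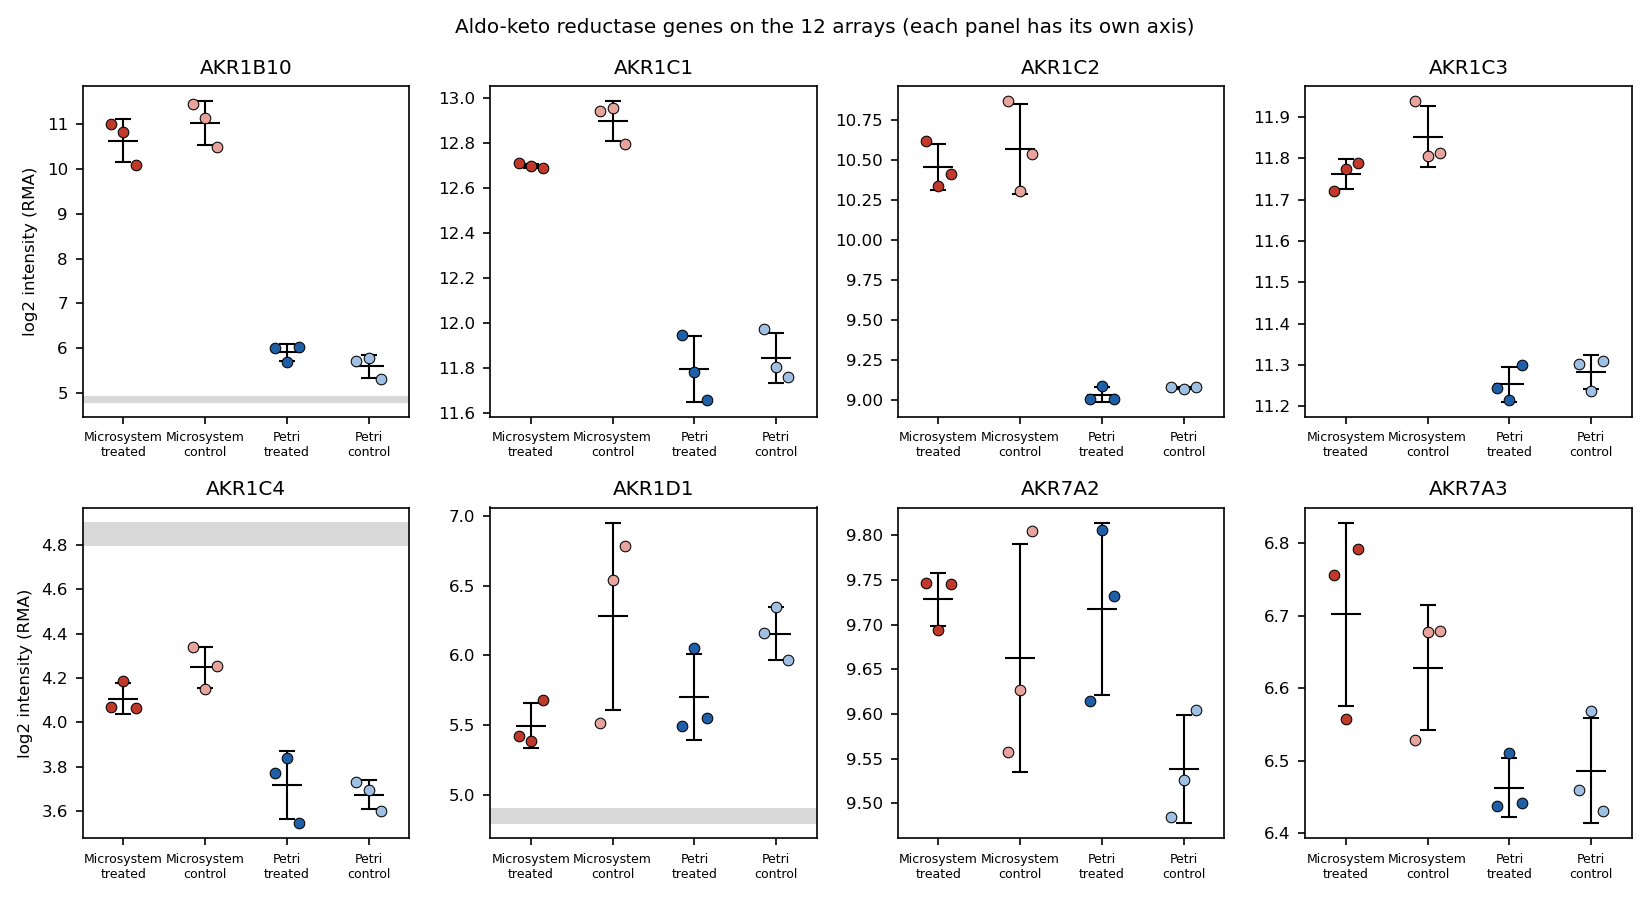
Log2 intensity of the 8 measured aldo-keto reductase genes on each of the 12 arrays, 1 panel a gene with its own vertical axis; points are arrays, and the line and bar are the mean ± SD of 3 arrays. Groups run from treated and control microsystem cells to treated and control Petri cells, and the grey band is the range of the arrays' 40th percentile; AKR1B10 and AKR1C1 to AKR1C3 have all microsystem arrays above all Petri arrays, and AKR1C4 lies under the band on every array.

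AKR1D1, the steroid reductase of bile acid synthesis, did not follow the AKR1C genes. It was at 5.42, 5.39 and 5.68 in treated and 5.52, 6.54 and 6.78 in control microsystem cells, against 5.50, 6.06 and 5.56 in treated and 6.16, 6.35 and 5.97 in control Petri cells. The cultures overlapped in both comparisons, and control microsystem array 1 stood below the other control arrays. The differences were -0.20 ± 0.25 (SE, adjusted p = 0.556) among treated cells and 0.12 ± 0.25 (adjusted p = 0.72) among control cells, by limma. Without control microsystem array 1 the control difference was 0.50 (adjusted p = 0.0278), and without array 2 or array 3 it was -0.01 or -0.13.

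AKR7A2 and AKR7A3 reduce the dialdehydes formed from aflatoxin, and AKR7A2 also reduces succinic semialdehyde. AKR7A2 measured 9.75, 9.69 and 9.75 in treated and 9.56, 9.63 and 9.80 in control microsystem cells, against 9.62, 9.81 and 9.73 in treated and 9.49, 9.53 and 9.60 in control Petri cells. The cultures overlapped, with differences of 0.01 ± 0.08 (SE, adjusted p = 0.935) among treated cells and 0.13 ± 0.08 (adjusted p = 0.246) among control cells. AKR7A3 measured 6.76, 6.56 and 6.79 in treated and 6.53, 6.68 and 6.68 in control microsystem cells, against 6.44, 6.51 and 6.44 in treated and 6.46, 6.57 and 6.43 in control Petri cells. It rose by 0.24 ± 0.08 log2 units (SE, 1.18-fold, adjusted p = 0.0353) among treated cells, and differed by 0.14 ± 0.08 (adjusted p = 0.186) among control cells. That call was lost without treated microsystem array 1 (adjusted p = 0.105) or 3 (0.122), without treated Petri array 1 (0.0854), 2 (0.0549) or 3 (0.0953), and without both microsystem arrays numbered 3 (0.118), and also with quantile normalization (0.093) and with only the arrays compared (0.0542).

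**Figure D2:**
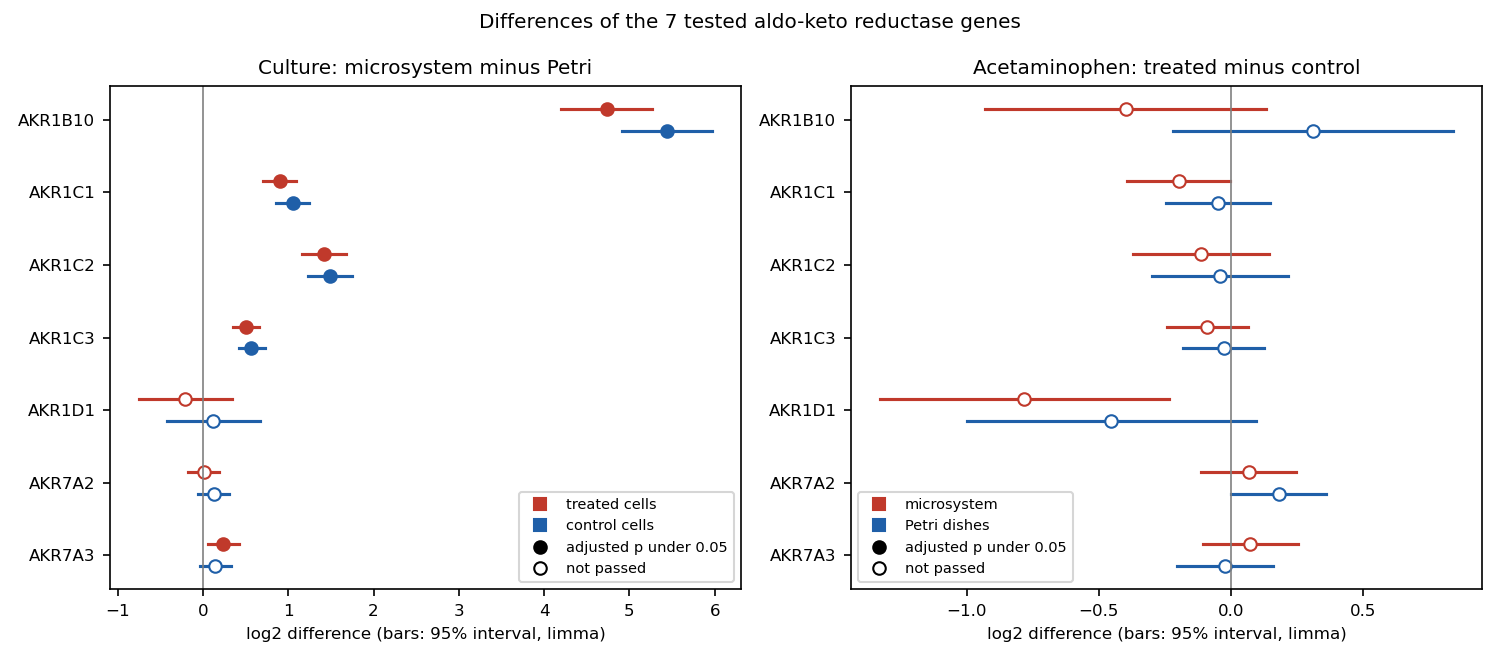
Log2 differences of the 7 tested aldo-keto reductase genes, with 95% intervals from limma; filled points have an adjusted p under 0.05. Microsystem minus Petri differences reach 4.73 (treated cells) and 5.44 (control cells) for AKR1B10, while no treated minus control difference is filled.

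Acetaminophen changed none of the 7 genes past the threshold in either culture in the main tests, which did not pair arrays by number. Of all tested genes, 9.06% passed in the microsystem (6.39% rose, 2.67% fell) and 10.4% in Petri dishes (8.38% rose, 1.98% fell). At an unadjusted p under 0.05 there were 2 of the 7 in the microsystem, AKR1C1 and AKR1D1, where 25.8% of all tested genes were, and 0 in Petri dishes, where 26.3% were. In the microsystem AKR1D1 had the largest difference, at -0.78 ± 0.25 log2 units (SE, adjusted p = 0.0712 by limma), with overlapping groups. With the replicate number as a block in limma, AKR1D1 passed the threshold there (adjusted p = 0.0385, and 0.0139 with a block within culture). Without control microsystem array 1 it fell by 1.16 (adjusted p = 0.00182), and over all alternatives the adjusted p ran from 0.00182 to 0.231. In Petri dishes its difference was -0.45 ± 0.25 (adjusted p = 0.28).

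AKR1C1 and AKR1C3 were lower on every treated than on every control microsystem array, by -0.20 ± 0.09 (adjusted p = 0.184) and -0.09 ± 0.07 (adjusted p = 0.446), and 27.6% of all tested genes had groups without overlap there. In Petri dishes only AKR7A2 was higher on every treated array, by 0.18 ± 0.08 (adjusted p = 0.191), against 34.5% of all genes without overlap. AKR1B10 differed by -0.40 ± 0.25 (adjusted p = 0.326) in the microsystem and by 0.31 ± 0.25 (adjusted p = 0.454) in Petri dishes. Leaving out 1 array moved these values to between -0.67 (without control microsystem array 3) and -0.13 (without treated microsystem array 3), and to between 0.17 (without control Petri array 3) and 0.42 (without treated Petri array 2). The difference of these effects was -0.71 ± 0.35, with a 95% interval of -1.46 to 0.04 (adjusted p = 0.701), and ran from -0.98 to -0.44 over the alternatives. None of the 7 genes passed in the test of that difference, at an adjusted or an unadjusted p under 0.05. Of all tested genes, 0.0303% did at an adjusted p under 0.05 (0.00758% positive, 0.0227% negative) and 7.35% at an unadjusted one.

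The genes whose values followed AKR1B10 most closely over the 12 arrays were AKT1S1 (Pearson r = 0.995), GPX2 (0.994) and SGK2 (0.994). The arrays form separate clusters by culture, and 329 of 13192 other genes had r over 0.95 with AKR1B10, against 250 for AKR1C1, 156 for AKR1C2 and 164 for AKR1C3. AKR1D1 was nearest to DMRTB1 (0.964), AKR7A2 to MCM5 (0.953) and AKR7A3 to H3C7 (0.927), and 1, 1 and 0 other genes passed 0.95. These correlations include the difference between the cultures that the arrays share.

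The other known NRF2 targets, outside the aldo-keto reductases, were listed from general knowledge, but with earlier results of these data known. They mostly rose in the microsystem too, and the cause was not tested. Of 24 tested of 28 listed, 19 rose among treated cells (79.2%, against 22.6% of all tested genes) and 0 fell (against 18.9%). Their median log2 difference was 0.85, against -0.001 for all genes. Among control cells 20 rose (83.3%, against 26.5%) and 0 fell (against 18.3%), with a median of 0.74, against 0.012. SLC7A11, the cystine importer, rose by 2.83 ± 0.25 log2 units (SE, adjusted p = 1.86e-06 by limma) among treated cells and 1.39 ± 0.25 (adjusted p = 0.00047) among control cells. GCLM, a subunit of the enzyme that starts glutathione synthesis, was at 8.48, 8.27 and 8.78 in treated microsystem cells, against 6.49, 6.40 and 6.42 in treated Petri cells. Its rise was 2.08 ± 0.12 among treated and 1.92 ± 0.12 among control cells. GCLC, the other subunit, was not past the threshold by limma. It differed by 0.10 ± 0.08 (adjusted p = 0.35) among treated and -0.06 ± 0.08 (adjusted p = 0.545) among control cells. The quinone reductase NQO1 rose by 1.51 ± 0.12 and 1.48 ± 0.12, and the epoxide hydrolase EPHX1 by 1.74 ± 0.20 and 2.08 ± 0.20, in the same order.

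With acetaminophen in the microsystem 3 of these 24 targets rose (HMOX1, SLC48A1 and GCLC) and 0 fell, or 12.5% against 9.06% of all tested genes. In Petri dishes 2 rose (SLC48A1 and SRXN1) and 2 fell (SLC7A11 and HMOX1), or 16.7% against 10.4%. The GCLC call was lost in 11 alternatives and the SRXN1 call in 5. HMOX1, which breaks down heme, rose by 0.58 ± 0.12 (SE, adjusted p = 0.0086) in the microsystem and fell by 0.42 ± 0.12 (adjusted p = 0.033) in Petri dishes, a call lost without any single Petri array (adjusted p of 0.0576 to 0.111). The difference of its effects, 1.01 ± 0.16, had an adjusted p of 0.0565. It was 0.042 without control microsystem array 3, 0.00232 without treated microsystem array 2, and 0.00232 to 0.205 over all alternatives. NQO1 differed by -0.05 in the microsystem and by -0.09 in Petri dishes, neither past the threshold.

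**Figure D3:**
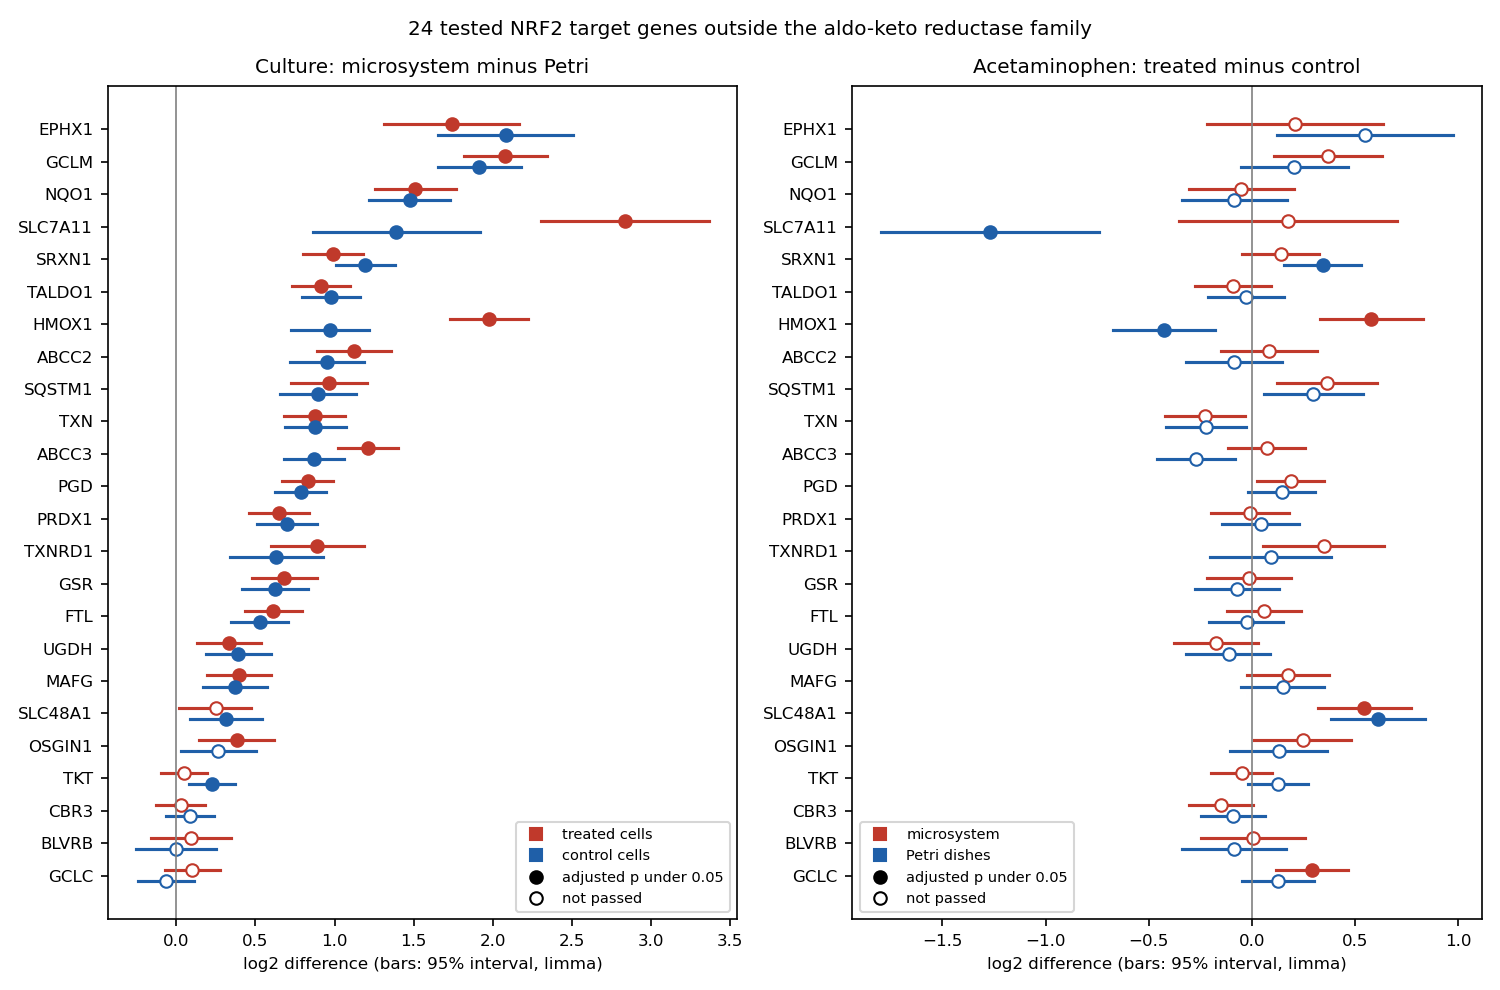
Log2 differences of the 24 tested NRF2 targets outside the aldo-keto reductases, microsystem minus Petri (left) and treated minus control (right), with points filled at an adjusted p under 0.05 in limma. In the left panel 19 genes (treated cells, 79.2%, against 22.6% of all tested genes) and 20 genes (control cells, 83.3%, against 26.5%) rose and none fell. The genes were listed with earlier results of these data known.

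Of 14 tested regulators of these genes, 3 rose (21.4%) and 6 fell (42.9%) in the microsystem in both comparisons, where 22.6% and 26.5% of all tested genes rose and 18.9% and 18.3% fell among treated and control cells. AHR, the aryl hydrocarbon receptor, fell by 0.91 ± 0.09 log2 units (SE, adjusted p = 3.61e-06) among treated and by 0.99 ± 0.09 (adjusted p = 1.61e-06) among control cells. The liver factor FOXA2 fell by 0.93 ± 0.13 and 0.89 ± 0.13. KEAP1 rose by 0.54 ± 0.08 and 0.70 ± 0.08. NFE2L2, named here after its values were seen, fell by 0.33 ± 0.09 (adjusted p = 0.0114 by limma) and 0.59 ± 0.09 (adjusted p = 0.000205), in the same order. In these comparisons 19 and 20 of the 24 listed targets rose. The arrays measure RNA and not NRF2 protein or its activity, and the cause was not tested. Acetaminophen passed the threshold for 0 of the 14 in either culture, against 9.06% of all tested genes in the microsystem and 10.4% in Petri dishes. At an unadjusted p under 0.05 by limma there was 1 in each culture, against 25.8% and 26.3% of all tested genes.

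Other carbonyl and quinone reductases, which share substrates with the family, rose in 9 of 17 tested cases (52.9%) among treated cells (0 fell), against 22.6% of all genes, and in 9 among control cells (1 fell, DHRS3), against 26.5%. Of the 20 listed, 8 are also in another list, NQO1 among them, so the counts of these lists are not independent. PTGR1, which reduces lipid-derived enones, rose by 2.08 ± 0.19 (SE, adjusted p = 3.44e-06 by limma) among treated cells, where 2 of 3 Petri arrays were above their 40th percentile. Among control cells no Petri array was, and it was at least 4.38-fold higher in the microsystem, the microsystem mean being set against those arrays' 40th percentile (adjusted p = 1.26e-06). NQO2 rose by 1.54 ± 0.18 and 1.74 ± 0.18. With acetaminophen in the microsystem 3 of the 17 rose (17.6%, against 6.39% of all genes) and 1 fell (5.88%, against 2.67%). Those that rose were DHRS3, PTGR2 and DHRS1, calls lost in 4, 7 and 12 alternatives. CBR1, a carbonyl reductase, fell there by 0.38 ± 0.08 (adjusted p = 0.0153 by limma), a call lost in 4 alternatives. In Petri dishes 3 rose (17.6%, against 8.38%) and 0 fell (against 1.98%). These were DHRS2, PTGR2 and DCXR, calls lost in 0, 1 and 4 alternatives.

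Aldehyde and alcohol dehydrogenases, which oxidise where aldo-keto reductases reduce, went both ways. Of 17 tested, 6 rose (35.3%, against 22.6% of all genes) and 4 fell (23.5%, against 18.9%) among treated cells. Among control cells 7 rose (41.2%, against 26.5%) and 3 fell (17.6%, against 18.3%). ALDH3A1, which oxidises lipid aldehydes, rose by 2.69 ± 0.31 (SE) and 2.61 ± 0.31, and ALDH1A1, which oxidises retinal, by 1.70 ± 0.10 and 1.63 ± 0.10.

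Of 15 tested steroid enzymes, 5 rose (33.3%, against 22.6% of all genes) and 3 fell (20%, against 18.9%) among treated cells. Among control cells 6 rose (40%, against 26.5%) and 5 fell (33.3%, against 18.3%). CYP19A1, the aromatase, fell by 1.495 ± 0.25 (SE, adjusted p = 0.000348) and 1.71 ± 0.25 (adjusted p = 0.000105), in the same order. STS, which frees sulfated steroids, rose by 0.88 ± 0.09 among treated cells and was at least 1.88-fold higher in the microsystem among control cells (adjusted p = 1.41e-06), where no Petri array was above its 40th percentile. With acetaminophen HSD17B2, which inactivates estradiol and testosterone, rose by 0.96 ± 0.14 in the microsystem (adjusted p = 0.0016) and 0.76 ± 0.14 in Petri dishes (adjusted p = 0.00452). Of 7 tested bile acid genes, 2 rose in the microsystem in both comparisons (28.6%), near the 22.6% and 26.5% of all genes. They were HSD17B4, which acts in peroxisomal side-chain shortening, and SLC27A2, a fatty acid and bile acid precursor CoA ligase whose call among control cells was lost in 4 alternatives.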

How the data were processed

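Affymetrix arrays measured total RNA of 12 HepG2C3A samples. The authors deposited log2 intensities per probe set; per the submitters' processing notes, they used RMA and Affymetrix Expression Console. No version or genome build was found in the labels. The values were not normalized again, and the number of arrays limits the precision.

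Of 32321 probe sets, 19158 had 1 symbol, 1388 several and 11775 none here. Tests were limited to genes above the 40th percentile of an array (log2 4.8 to 4.9) on 3 or more arrays. The 4 group means were estimated jointly with limma 3.58.1 in R 4.3.3 with data.table (version 1.17.8), which gave 8 residual and 5.35 prior degrees of freedom. Tests were two-sided, and p-values were adjusted by Benjamini-Hochberg over 13199 genes. An exact permutation test of 3 against 3 arrays cannot go below 0.1 and was not used. The fitting code was tested on simulated data. Promoters were taken from RefSeq, and alignment and plots used Python 3.11.15, Biopython 1.88, pandas 2.3.3 and matplotlib 3.10.9.

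The members and lists were chosen with earlier results of these data known. The text names all listed aldo-keto reductases, up to 4 called genes per list and comparison (or the one with the smallest adjusted p), NQO1, GCLM and AKR1B1 (not analysed here), and the nearest genes by correlation. Same-numbered Petri arrays deviated together (r of 0.48, 0.19 and 0.31), which counts as pairing; the microsystem arrays (0.11, 0.07 and 0.60) did not all pass 0.1. Alternatives were replicate blocks, normalization, filters, probe-set choice, variance trend, array weights and leaving out arrays.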

Additional observations from a re-analysis of the deposited data

How the results depend on the processing

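The culture calls of AKR1B10, AKR1C1, AKR1C2 and AKR1C3 held in all 22 alternatives, with AKR1B10 between 4.55 and 5.01 among treated and between 5.23 and 5.71 among control cells. The 60th-percentile filter drops AKR1D1, so it has no value there. The count of called aldo-keto reductases, 0 for acetaminophen, became 1 in Petri dishes with array weights (AKR7A2), and 1 in the microsystem (AKR1D1) with a replicate block (adjusted p = 0.0385), a replicate block within culture (0.0139) and array weights (0.0274). Leaving out single arrays gave counts of 0 to 0 in Petri dishes, 0 to 1 in the microsystem, 4 to 5 for culture in each treatment and 0 to 0 for the difference of effects. Blocking on the replicate number changed no other call of an aldo-keto reductase, and took the difference of HMOX1 effects past the threshold (adjusted p = 0.038, and 0.0212 within culture). With only the arrays compared, HMOX1 in the microsystem had an adjusted p of 0.0595. The cause of these changes was not tested.

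Small differences that were not past the threshold changed sign. For acetaminophen in Petri dishes, array medians set equal gave 0.012 for AKR1C3 and 0.018 for AKR7A3, and the mean of probe sets gave 0.042 for AKR1C1. Leaving out single arrays there gave -0.126 to 0.019 for AKR1C1, -0.051 to 0.018 for AKR7A3, -0.171 to 0.016 for NQO1 and -0.154 to 0.006 for NFE2L2. In the microsystem it gave -0.246 to 0.034 for AKR1C2 and -0.159 to 0.004 for NQO1, which was 0.011 with quantile normalization. For culture it gave -0.128 to 0.504 for AKR1D1 in controls, which was -0.128 without both microsystem arrays numbered 3, and -0.041 to 0.055 for AKR7A2 in treated cells, which was -0.025 with array weights. For the difference of effects it gave -0.203 to 0.077 for AKR1C2, which was 0.01 with quantile normalization and 0.007 with array weights. For NQO1 it gave -0.074 to 0.12, with -0.001 under array weights and -0.028 without both microsystem arrays numbered 3.

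Over all genes, calls numbered 1367 in Petri dishes (697 to 3602 over the alternatives), 1196 in the microsystem (446 to 2109) and 4 for the difference of effects (1 to 54). With array medians set equal the share of calls that rose was 81.6% in the microsystem, against 70.5%, and 90.7% in Petri dishes (1487 rose and 153 fell), against 80.9% (1106 and 261); with quantile normalization it was 42.9% for the difference of effects, against 25%.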

Other observations

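Of 11 tested retinoid genes, 4 rose (36.4%, against 22.6% of all genes) and 1 fell (9.09%, against 18.9%) in the microsystem among treated cells. Among control cells 5 rose (45.5%, against 26.5%) and 2 fell (18.2%, against 18.3%). RDH10, which oxidises retinol to retinal, rose by 1.01 ± 0.12 log2 units (SE, adjusted p = 2.81e-05 by limma) among treated and 0.70 ± 0.12 (adjusted p = 0.000423) among control cells. Of 9 tested genes of glucuronate and polyol metabolism, UGDH and RGN rose and UGP2 and GUSB fell in both comparisons, 22.2% each way, near the shares of all genes. UGDH, which makes UDP-glucuronate, rose by 0.33 ± 0.09 among treated and 0.39 ± 0.09 among control cells. GUSB, the lysosomal glucuronidase, rose with acetaminophen by 0.41 ± 0.08 in the microsystem (adjusted p = 0.00801) and 0.32 ± 0.08 in Petri dishes (adjusted p = 0.0213).

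Of 8 other listed aldo-keto reductase and potassium channel beta-subunit genes, KCNAB2 alone was tested. It differed by 0.20 ± 0.12 (adjusted p = 0.185) among treated cells and rose by 0.64 ± 0.12 (adjusted p = 0.000563) among control cells.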
